A study of Homo sapiens with 12 samples.

Results

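RNA levels of 319 genes of human chromosome 14 were followed in 786-O cells, an established line from a clear cell renal cell carcinoma, and in lines derived from it. Members were the rows of the deposited count table placed on chromosome 14 (hg38) whose mean level over 12 libraries was 5 CPM or more. CPM expresses a gene's counts relative to the total of its library, after scaling of library sizes by edgeR. Membership was thus selected on 1 measured value, the mean CPM. A list of single genes (among them HIF1A and FOS) and symbols starting with PSM, RPL, RPS, NDUF or MRP were left out by the same rule, which removed 24 rows at this level. The 319 members came from 2244 eligible rows of the chromosome and from 12301 genes tested in all. The chromosome was chosen because its genes stood off zero in earlier results of these data, so the chromosome-wide shift and the counts of members above or below it are descriptions, and what is examined is how single members kept to the shift or departed from it.

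Libraries were made by BRB-seq, which tags each sample's RNA with a barcode and reads transcripts from their 3′ ends, with 3 libraries from each of 4 lines. Parental was 786-O itself. The line shHIF2A carried shRNA against HIF2A (EPAS1), the shJUNs line against JUN, JUNB and JUND, and the shYAPTAZ line against YAP and TAZ (genes YAP1 and WWTR1). All 4 lines, Parental included, had 72 hours of doxycycline, which switches the shRNAs on. Derived lines were selected with up to 3 antibiotics, depending on how many genes were silenced. Each knockdown is represented by 1 line, the labels call the replicates technical, and a line with a control shRNA was not analysed here, so p-values measure only the spread between libraries, and effects of the knockdown and of deriving a line cannot be told apart.

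Genes on a chromosome usually yield RNA in rough proportion to the number of copies of that chromosome in the cell. The proportion is not strict, since feedback, regulators specific to a gene, or RNA stability can hold a gene's level away from its dosage. Loss of a copy of the long arm of chromosome 14 is a recurrent event in clear cell renal carcinoma, and cultured cancer lines can gain or lose chromosomes while being selected. DNA copy number was not measured in these libraries, so every value below is an RNA level.

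Promoters are shown for the members that mark both ends of the range and its middle. MDGA2 and MOK fell farthest below the chromosome shift in shYAPTAZ, NID2 stood farthest above it, and ATP5MJ was the member of highest level among those at the chromosome median. Each sequence is the 250 bases before a RefSeq start (GRCh38.p14), 5′ to 3′ on the gene's strand, the minus strand for all 4. Capitals mark matches, on either strand, to the AP-1 motif TGACTCA, to ACGTG (a form of the hypoxia response element core) or to GGAATG (the TEAD motif). Other forms of these motifs were not searched. They lie at chr14:47675606-47675855 for MDGA2, chr14:102305165-102305414 for MOK, chr14:52069060-52069309 for NID2 and chr14:103921530-103921779 for ATP5MJ. The ATP5MJ start lies 6740 bases inside the gene's span in the count table, and the MOK start 26 bases inside.
MDGA2: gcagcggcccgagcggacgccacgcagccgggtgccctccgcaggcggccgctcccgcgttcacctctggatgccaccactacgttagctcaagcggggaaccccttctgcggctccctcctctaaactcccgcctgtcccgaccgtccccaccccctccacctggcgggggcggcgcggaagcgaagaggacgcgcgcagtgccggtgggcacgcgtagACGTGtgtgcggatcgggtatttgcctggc
MOK: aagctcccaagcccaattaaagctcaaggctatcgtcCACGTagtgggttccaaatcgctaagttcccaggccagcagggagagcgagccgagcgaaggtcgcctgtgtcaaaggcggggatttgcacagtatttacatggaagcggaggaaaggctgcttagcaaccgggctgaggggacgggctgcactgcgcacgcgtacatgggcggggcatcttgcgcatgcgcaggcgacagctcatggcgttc
NID2: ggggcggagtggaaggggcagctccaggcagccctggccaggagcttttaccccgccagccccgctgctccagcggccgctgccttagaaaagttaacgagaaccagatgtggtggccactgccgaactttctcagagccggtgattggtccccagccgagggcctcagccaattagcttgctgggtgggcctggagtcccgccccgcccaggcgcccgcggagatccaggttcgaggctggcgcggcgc
ATP5MJ: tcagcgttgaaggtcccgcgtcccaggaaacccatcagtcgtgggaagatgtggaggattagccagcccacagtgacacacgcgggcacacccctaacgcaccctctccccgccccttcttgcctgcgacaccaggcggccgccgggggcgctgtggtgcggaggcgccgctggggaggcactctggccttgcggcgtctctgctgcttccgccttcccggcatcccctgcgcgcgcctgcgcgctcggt
MDGA2 and MOK each held 1 match to ACGTG or its reverse complement. The windows of NID2 and ATP5MJ held none of the 3 motifs in the forms searched. RefSeq windows were found for 271 of the 319 members (387 windows). ACGTG was in 22.2% of them against 18.5% of all 35116 windows, TGACTCA in 2.07% against 4.2%, and GGAATG in 9.82% against 11.9%. The median GC content was 63.2% in members' windows and 58.0% in all windows. The full set of windows was taken without regard to expression, so it is not matched to the members in level or GC content. Between members, the windows of those later found above the shift in shYAPTAZ (median 65.6%) and below it (64.8%) were close in GC content. ACGTG was in 10 of 46 windows above and 11 of 51 below, TGACTCA in 3 and 2, and GGAATG in 7 and 6.

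Total counts per library ran from 2272459 to 4469956, so 3 counts in a library correspond to 0.67 to 1.32 CPM. Replicates differed by more than counting error, and the common dispersion gave a coefficient of variation of 25.1% between libraries of a group. Of the targeted genes, EPAS1 had a mean of 203 CPM in Parental, 16.0 in shHIF2A, 37.1 in shJUNs and 113 in shYAPTAZ. In the same order JUND had 355, 220, 38.6 and 170 CPM, JUN 153, 80.2, 85.6 and 155, and JUNB 192, 156, 113 and 197. YAP1 had 65.4, 46.1, 57.1 and 14.1 CPM, and WWTR1 311, 504, 441 and 153. Each target was thus lower than Parental in its own line, and each except WWTR1 was also lower than Parental in at least 1 other line. Before scaling, the kidney lineage factor PAX8 was at 88.1 to 101 CPM in the 4 lines, while PAX2 was at 12.6 in Parental and between 5.85 and 7.3 in the derived lines. The kidney cadherin CDH6 was at 75 CPM in Parental and between 236 and 391 in the derived lines. The keratin KRT8 was at 184 CPM in Parental and between 343 and 637 in those lines, and KRT18 at 118 and between 150 and 423. Among the other kidney and carcinoma markers listed beforehand, CA9 was at only 1.31 to 3.61 CPM in the 4 lines and NNMT at 309 to 477. VIM was at 14800 CPM in Parental, 9350 in shHIF2A, 13600 in shJUNs and 14400 in shYAPTAZ. Of 7 markers of blood and endothelial cells, PTPRC had 1 count over all 12 libraries, CD3E, PECAM1 and CDH5 had 0, VWF had 4, HBB 30 and CD68 43, each of these at most 2.08 CPM in any line.

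Chromosome 14 members were higher in shJUNs and higher still in shYAPTAZ, while in shHIF2A their median was near 0. The members' share of all counts was 1.15%, 1.2% and 1.24% in the Parental libraries and 1.13%, 1.14% and 1.15% in the shHIF2A libraries. The shJUNs libraries had shares of 1.54%, 1.55% and 1.58%, and the shYAPTAZ libraries 2.0%, 1.97% and 2.08%. The libraries of each of these lines lay close together, and neither shJUNs nor shYAPTAZ overlapped any other line. Group means were 1.197% ± 0.045 for Parental, 1.14% ± 0.01 for shHIF2A, 1.557% ± 0.021 for shJUNs and 2.017% ± 0.057 for shYAPTAZ (SD, n = 3 libraries). In such bulk RNA, a change in every cell and a larger change in some of the cells cannot be told apart.

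**Figure D1:**
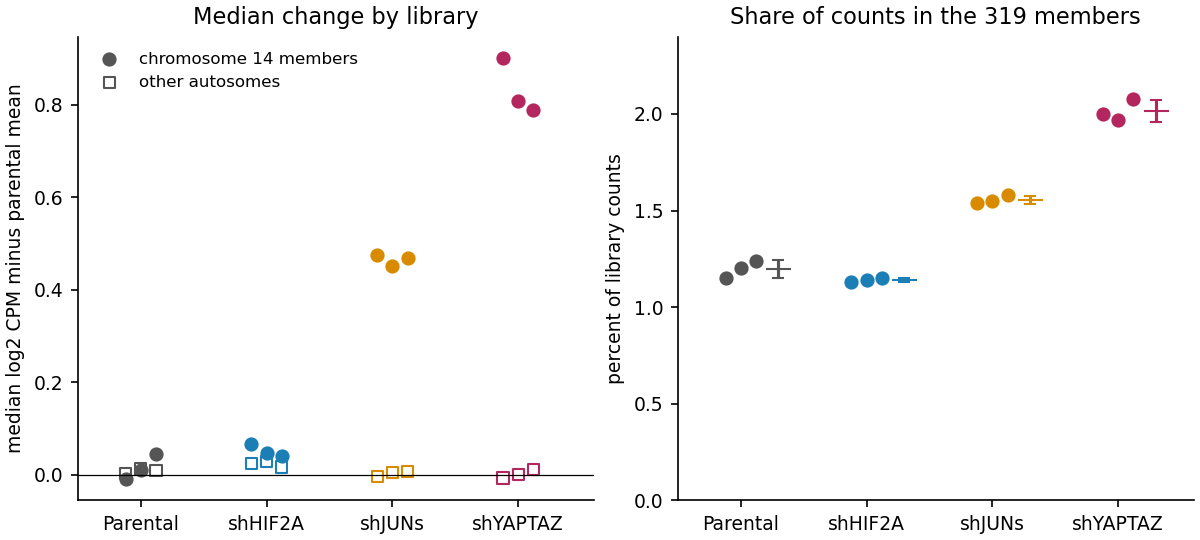
Left, the median log2 CPM difference from the parental mean over the 319 chromosome 14 members (filled circles) and over 9488 genes of other autosomes (open squares), 1 point per library. Right, the percent of each library's counts in the members, with group mean and SD; shJUNs libraries lie at 1.54% to 1.58% and shYAPTAZ libraries at 1.97% to 2.08%, above all Parental and shHIF2A libraries.

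Set against Parental gene by gene, the median member changed by 0.40 on the log2 scale in shJUNs (1.32-fold, quartiles 0.06 and 0.83) and by 0.87 in shYAPTAZ (1.83-fold, quartiles 0.39 and 1.31). In shHIF2A the median was -0.002, with quartiles -0.41 and 0.44. Over 9488 genes of the other autosomes at the same level, chromosome 13 left out, the medians were 0.01 in shHIF2A, -0.02 in shJUNs and 0.004 in shYAPTAZ. Of the 319 members, 158 lay above 0 in shHIF2A, 250 in shJUNs (78.4%) and 277 in shYAPTAZ (86.8%). Within each of the shJUNs libraries the median member stood 0.45 to 0.48 above the parental mean, and within the shYAPTAZ libraries 0.79 to 0.90.

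**Figure D2:**
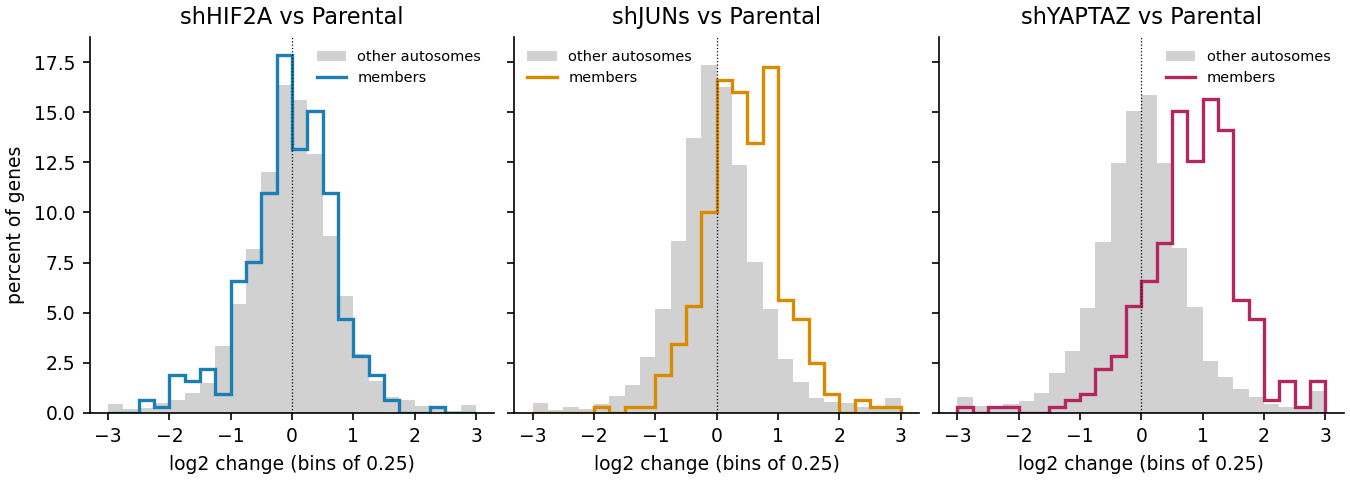
Percent of genes in bins of 0.25 of log2 change against Parental, for the 319 members (line) and 9488 genes of other autosomes (grey); changes beyond 3 are drawn in the outermost bins. Members overlie the other genes in shHIF2A (medians -0.002 and 0.01) and are displaced upward as a body in shJUNs (median 0.40) and shYAPTAZ (median 0.87).

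Between autosomes, chromosome 14 had the highest median in shJUNs and in shYAPTAZ. In shYAPTAZ the next medians were 0.32 on chromosomes 16 and 6, and chromosome 13 was lowest at -0.52 over 190 genes. In shJUNs the next were 0.34 on chromosome 16 and 0.31 on chromosome 22, and chromosome 15 was lowest at -0.34. In shHIF2A the autosomal medians lay between -0.14 and 0.10.

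**Figure D3:**
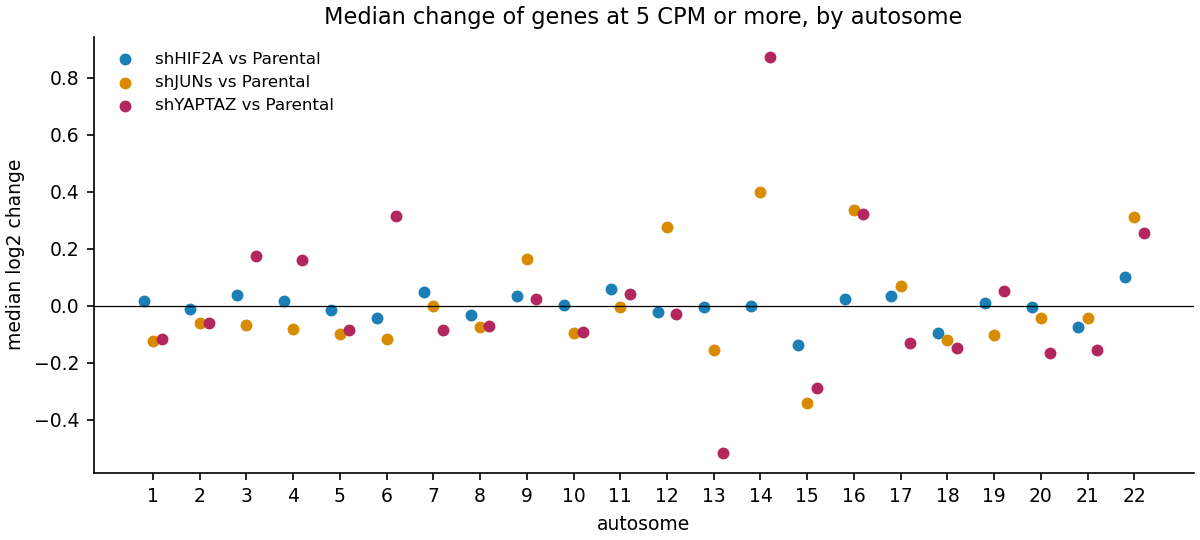
Median log2 change against Parental of genes at 5 CPM or more, by autosome, 1 point per line. Chromosome 14 lies at 0.87 in shYAPTAZ and 0.40 in shJUNs, the highest autosome in both, and at -0.002 in shHIF2A.

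Genes were then called singly, at an adjusted p under 0.05 over all 12301 genes in edgeR's quasi-likelihood test. In shYAPTAZ against Parental, 159 of the 319 members were called higher (49.8%; 13% of all genes tested) and 10 lower (3.13%; 12.3%). In shJUNs 79 were called higher (24.8%; 10.3%) and 6 lower (1.88%; 8.93%). In shHIF2A 20 were called higher (6.27%; 9.84%) and 29 lower (9.09%; 8.8%). Since the chromosome was picked for its shift in these lines, these shares are descriptions. The 3 comparisons share the Parental libraries, so their values are given side by side only.

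The lines can also be set against each other without Parental. Between shYAPTAZ and shHIF2A the median member differed by 0.81 on the log2 scale, with 155 of 319 called higher in shYAPTAZ (48.6%; 9.71% of all genes) and 5 lower (1.57%; 8.72%), namely MDGA2, MAP4K5, GCH1, NRXN3 and MOK. Between shJUNs and shHIF2A the median was 0.41, with 42 called higher (13.2%; 4.36%) and 1 lower (0.313%; 3.17%), SEC23A. Between shYAPTAZ and shJUNs the median was 0.43, with 58 called higher (18.2%; 7.87%) and 8 lower (2.51%; 8.27%). Mean CPM stood in the order Parental, shJUNs, shYAPTAZ from low to high for 190 members (59.6%; 20% of all genes). All 3 shYAPTAZ libraries lay above the other 9 libraries for 103 members (32.3%; 5.75%) and below them for 4 (1.25%; 5.1%), MDGA2, NRXN3, MOK and NUDT14.

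The shift ran the length of the chromosome. In windows of 10 Mb by gene start, from 20 to 110 Mb, the median member lay between 0.76 (100 to 110 Mb, 42 members) and 1.09 (30 to 40 Mb, 27 members) in shYAPTAZ. In shJUNs the window medians lay between 0.29 (90 to 100 Mb, 35 members) and 0.56 (30 to 40 Mb). All 9 windows were above 0 in both lines. In shHIF2A they lay on both sides of 0, from -0.41 (80 to 90 Mb, 10 members) to 0.31 (30 to 40 Mb). A running median over 15 neighbouring members never reached 0 in shYAPTAZ or shJUNs: its lowest point was 0.35 around DNAL1 (73.6 Mb) in shYAPTAZ and 0.08 around CHD8 (21.4 Mb) in shJUNs. The highest points were 1.39 around DCAF4 (72.9 Mb) and 0.87 around MNAT1 (60.7 Mb). These points are the centres of windows of 15 members. In shYAPTAZ the highest and lowest centres were less than 1 Mb apart. Their windows shared members, so no sharp local step can be read from them.

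**Figure D4:**
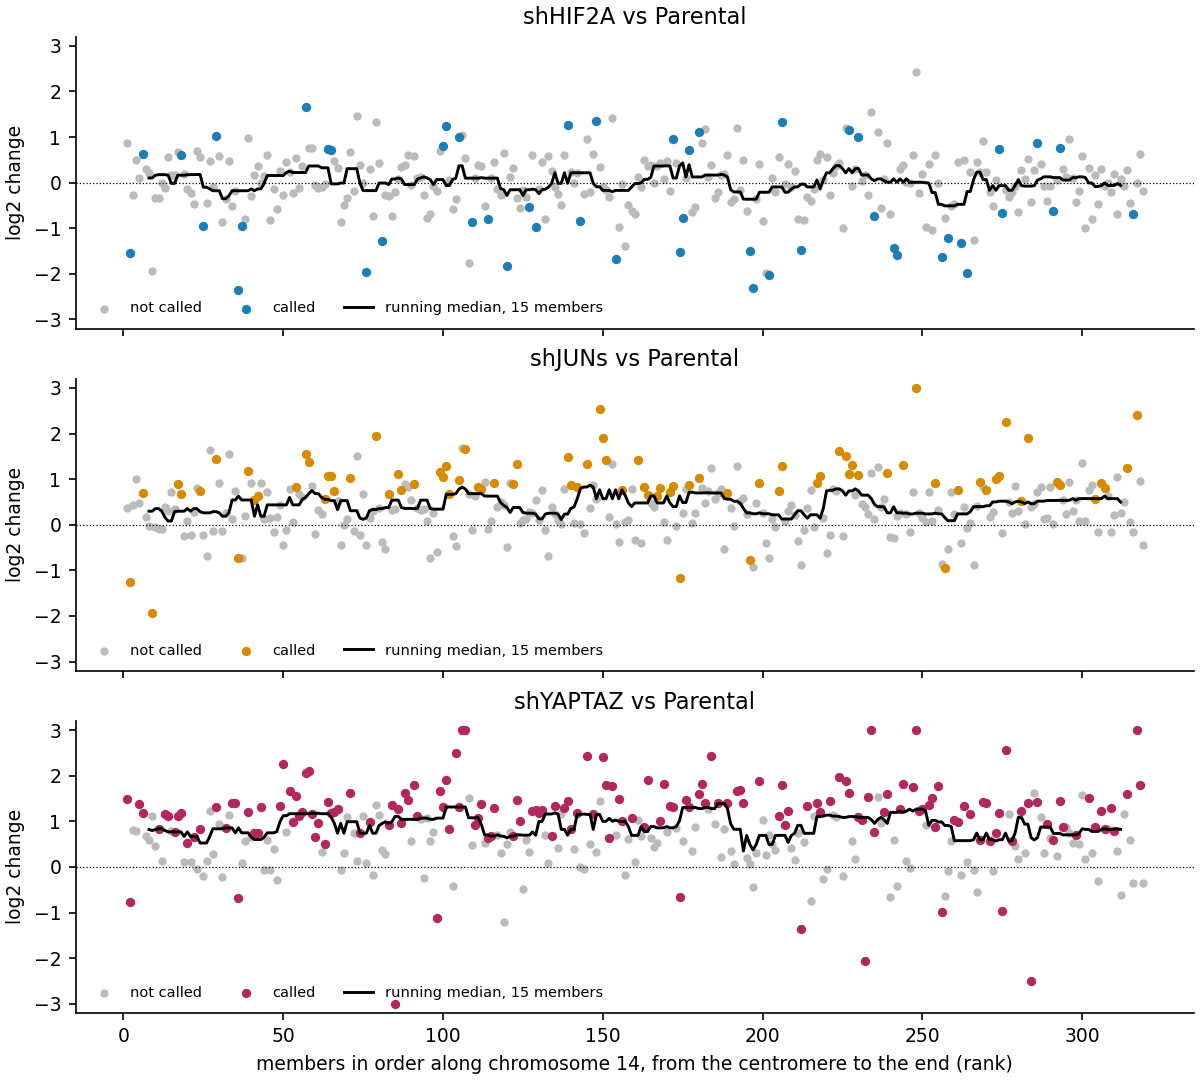
Log2 change against Parental of the 319 members in their order along chromosome 14, from the centromere outward, for the 3 derived lines (coloured points, called at an adjusted p under 0.05; grey, not called; values beyond 3 drawn at 3). The black running median over 15 members stays above 0 throughout in shJUNs (0.08 to 0.87) and shYAPTAZ (0.35 to 1.39) and crosses 0 repeatedly in shHIF2A.

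Rank correlations of change with position were near 0. Across the 319 members, which share libraries and depth, Spearman's rho between change and start was -0.003 in shYAPTAZ, 0.06 in shJUNs and -0.05 in shHIF2A. Between a member and its next neighbour rho was 0.05, 0.09 and 0.09 over 318 pairs. Between change and mean CPM it was -0.004, -0.02 and 0.03, and between change and summed exon length 0.01, -0.06 and -0.07.

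Members spread around the shift. In shYAPTAZ the shift, taken as the median of members less that of the other autosomes, was 0.87. For the shares that follow, changes were counted from the median of the other autosomes. Of the members, 153 (48.0%) changed by 0.43 to 1.30, within 50% of the shift, where 19.2% of the other autosomal genes fell. A further 81 (25.4%; 5.33% of the others) went beyond that range. Another 42 (13.2%; 25.5%) fell short of it without dropping below the median of the other autosomes. The last 43 (13.5%; 50%) lay below that median, against the shift. In shJUNs, with a shift of 0.42, 77 members (24.1%; 19.6%) lay within 50% of it, 130 (40.8%; 16.6%) beyond, 44 (13.8%; 13.9%) short of it and 68 (21.3%; 50%) against it. The 50% of other genes against the shift is fixed in both lines, since changes were counted from their own median.

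To find members whose departure exceeded the spread between libraries, each gene was tested against the median change of its own chromosome in place of 0, with adjusted p-values over all 12301 genes. In shYAPTAZ, 29 members were called above the chromosome median (9.09%; 10.8% of all genes against their own chromosomes) and 36 below (11.3%; 11.2%). In shJUNs, 26 were above (8.15%; 9.14%) and 17 below (5.33%; 7.74%). In shHIF2A, 20 were above (6.27%; 9.61%) and 29 below (9.09%; 8.94%). These repeat the members called in the plain test, since the median there was -0.002. The shares in all 3 lines lie near those over all 12301 genes. That background holds chromosome 14 itself and genes under 5 CPM, so it is not matched in level. Departures in shYAPTAZ were called more often among abundant members, whose changes were estimated more precisely. These counts therefore do not show how often members of different level departed. There were 11 above and 9 below among 137 members at 5 to 20 CPM. Among 85 at 50 CPM or more there were 11 and 13. Shares for genes of the same level on other chromosomes were not computed. Whether departures were as frequent elsewhere was therefore not tested. All 29 members above in shYAPTAZ were also called higher than Parental, which a median above 0 makes nearly certain in advance. Of the 36 below, 10 were called lower than Parental and 26 were not called different from it. Of the remaining 254 members, 130 were called higher. With each library left out in turn, 25 of the 36 below and 10 of the 29 above kept their call in all 12 runs, and in shJUNs 8 of 17 and 9 of 26. Departing members were scattered, with 1 to 7 below and 1 to 6 above in each 10 Mb window.

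Members that followed the shift are shown best by those of high level closest to the median. ATP5MJ encodes a small subunit of the mitochondrial ATP synthase. Its CPM was 89.7, 118 and 131 in Parental and 146, 129 and 105 in shHIF2A. In shJUNs it had 161, 156 and 189 and in shYAPTAZ 194, 225 and 199 CPM. The Parental libraries lay below those of shJUNs and shYAPTAZ, and overlapped those of shHIF2A. It rose 1.82-fold in shYAPTAZ (log2 0.86 ± 0.17 SE, edgeR adjusted p = 6.18e-04) and 1.49-fold in shJUNs (0.57 ± 0.17, edgeR adjusted p = 0.0191), the latter call being lost without Parental replicate 1 or shJUNs replicate 3.

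FKBP3, a nuclear prolyl isomerase, had 47.8, 60.5 and 54.3 CPM in Parental and 44.6, 39.3 and 49.7 in shHIF2A. Its shJUNs libraries held 87.4, 88.7 and 82 and its shYAPTAZ libraries 96.7, 105 and 104. The shJUNs libraries lay above all 6 Parental and shHIF2A libraries, and the shYAPTAZ libraries above those of shJUNs. It rose 1.88-fold in shYAPTAZ (log2 0.91 ± 0.17, edgeR adjusted p = 5.1e-04) and 1.58-fold in shJUNs (0.67 ± 0.17, edgeR adjusted p = 0.00916). Its exons overlap those of PRPF39 on the opposite strand, and no source used here states whether the authors' counting used strand.

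AKT1, the kinase downstream of PI3K, had 50.3, 61 and 62.5 CPM in Parental and 40, 65.8 and 58.5 in shHIF2A. In shJUNs it had 80.3, 110 and 116 and in shYAPTAZ 80.8, 91.7 and 137 CPM. It rose by log2 0.84 ± 0.22 in shYAPTAZ (edgeR adjusted p = 0.00778), a call lost without shYAPTAZ replicate 3, and by 0.81 ± 0.22 in shJUNs (edgeR adjusted p = 0.012). The remaining members closest to the median in shYAPTAZ were TMX1 (0.84), PRMT5 (0.84), JKAMP (0.82), MGAT2 (0.95) and SPTSSA (0.95), all called higher. They encode a thioredoxin-related protein of the ER membrane, an arginine methyltransferase, an ER membrane protein, a Golgi N-glycan enzyme and a small subunit of serine palmitoyltransferase. The calls of TMX1, PRMT5 and SPTSSA in shYAPTAZ each failed when at least 1 library was left out, SPTSSA without shYAPTAZ replicate 1, TMX1 without Parental replicate 1 or shYAPTAZ replicate 2, and PRMT5 without Parental replicate 2 or 3 or shYAPTAZ replicate 3.

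Among the abundant members called higher in shYAPTAZ, TMED10, a cargo receptor of the early secretory pathway, had 138, 145 and 135 CPM in Parental and 104, 108 and 127 in shHIF2A. The shJUNs libraries had 172, 179 and 186 and the shYAPTAZ libraries 368, 344 and 349. The 4 lines did not overlap, with shHIF2A lowest. It rose 2.54-fold in shYAPTAZ (log2 1.34 ± 0.14, edgeR adjusted p = 2.18e-07) and was not called in shJUNs (0.36, edgeR adjusted p = 0.0645) or shHIF2A (-0.30, edgeR adjusted p = 0.127).

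Other abundant members called higher in shYAPTAZ were DAD1, a subunit of the oligosaccharyltransferase (log2 1.18), RTRAF, a component of the tRNA ligase complex (1.31), APEX1, the endonuclease of base excision repair (1.17), ERH (1.30), the initiation factor EIF5 (1.44) and CNIH1, a cargo receptor for ER export (0.68). DAD1, RTRAF, APEX1, ERH and EIF5 were also called higher in shHIF2A (0.61 to 0.99) and in shJUNs (0.67 to 0.99). CNIH1 was called in shYAPTAZ and changed by 0.11 in shHIF2A and 0.09 in shJUNs. RTRAF, APEX1 and ERH share exon sequence with genes on the opposite strand.

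ZFP36L1, an RNA-binding protein that promotes decay of AU-rich mRNAs, was the most abundant member and went against the shift. Its CPM was 1007, 1392 and 1400 in Parental and 484, 442 and 394 in shHIF2A. Values in shJUNs were 561, 593 and 526, and those in shYAPTAZ were 947, 703 and 747. Every library of the derived lines lay below every Parental library. It fell 2.88-fold in shHIF2A (log2 -1.52 ± 0.14, edgeR adjusted p = 1.17e-07), 2.26-fold in shJUNs (-1.18 ± 0.14, edgeR adjusted p = 2.74e-06) and 1.59-fold in shYAPTAZ (-0.67 ± 0.14, edgeR adjusted p = 0.00107). Against the chromosome median it lay lower by 1.53 in shYAPTAZ (edgeR adjusted p = 4.4e-08) and by 1.57 in shJUNs (edgeR adjusted p = 5.9e-08), beside its change of -1.52 in shHIF2A, where the members' median was -0.002. Both departures kept their call with any library left out.

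MDGA2, a membrane-anchored protein of synapses (chr14:46839629-47675605, minus strand), departed farthest below the shift. It had 17.1, 17.4 and 15 CPM in Parental and 17.4, 19.6 and 5.61 in shHIF2A. Values in shJUNs were 21.3, 29.6 and 12.5, and those in shYAPTAZ were 4.54, 0 and 0. The shYAPTAZ group held 10 counts in all, every one in replicate 1, against 164 in Parental. It changed by log2 -3.79 ± 0.84 in shYAPTAZ (edgeR adjusted p = 0.00328) and by -4.66 against the chromosome median (edgeR adjusted p = 7.1e-04). A fold for so few counts depends on the prior count of the fit.

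NRXN3, a neuronal adhesion receptor (chr14:78170373-79868291, plus strand), had 26.5, 23.9 and 29.7 CPM in Parental and 31, 23.7 and 35.4 in shHIF2A. Its shJUNs libraries held 47, 29.6 and 28.4 and its shYAPTAZ libraries 6.81, 6.37 and 6.02. The shYAPTAZ libraries were tight and far below the other 9. It fell 4.18-fold against Parental (log2 -2.06 ± 0.31, edgeR adjusted p = 3.43e-05), 4.69-fold against shHIF2A (-2.23 ± 0.31, edgeR adjusted p = 1.98e-05) and 5.49-fold against shJUNs (-2.46 ± 0.31, edgeR adjusted p = 6.36e-06). In shJUNs it lay at the chromosome median (departure -0.01, edgeR adjusted p = 1.0).

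Other neural genes moved in the same libraries, in both directions. Before scaling, SNAP25 had a mean of 0.37 CPM in Parental and 23 in shYAPTAZ, SYT1 5.47 and 0, and ELAVL4 had 1 count over all libraries. The summed level of these 3 neural markers was 4.21 to 7.77 CPM in the Parental libraries, 3.1 to 11.2 in shHIF2A, 3.89 to 7.87 in shJUNs and 11.9 to 35.2 in shYAPTAZ. Their part in the falls of MDGA2 and NRXN3 was not tested.

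MOK, a protein kinase related to the MAP kinases (chr14:102224500-102305190, minus strand), had 26.9, 13.8 and 26 CPM in Parental and 11, 11.5 and 27 in shHIF2A. In shJUNs it had 25.7, 28.6 and 33.1 and in shYAPTAZ 7.26, 2.55 and 2.65 CPM. The shYAPTAZ libraries lay below the other 9. It fell 5.65-fold against Parental (log2 -2.50 ± 0.45, edgeR adjusted p = 2.95e-04). Its exons overlap WDR20 on the opposite strand, so its counts are uncertain without strand.

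The other members farthest below the shift, among those called with no overlap of libraries, were of moderate level. ACYP1, an acylphosphatase, changed by -1.37 in shYAPTAZ, the kinase MAP4K5 by -1.11, the apoptosis modulator MOAP1 by -0.99, CCDC85C by -0.96 and the meiotic ubiquitin ligase CCNB1IP1 by -0.76, and all 5 were called lower than Parental. Their departures from the chromosome median, from -2.24 to -1.63, kept their call with any library left out. Their plain calls were weaker, since that of ACYP1 was lost without Parental replicate 2 or shYAPTAZ replicate 1, that of MOAP1 without Parental replicate 1 or 3 or shYAPTAZ replicate 2 or 3, and that of CCNB1IP1 without Parental replicate 1 or shYAPTAZ replicate 2 or 3. ACYP1, MOAP1, CCDC85C and CCNB1IP1 were also called lower in shHIF2A (-1.47, -1.63, -0.67 and -1.54). Of the 8 members named below the shift, MDGA2, MOK, NRXN3 and MAP4K5 were called lower in shYAPTAZ and not in shHIF2A, and these 4 were also called lower when shYAPTAZ was set directly against shHIF2A.

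Abundant members below the chromosome median that were not called different from Parental in shYAPTAZ were a further kind of departure. HNRNPC, a splicing and RNA packaging factor, had 196, 231 and 231 CPM in Parental and 185, 224 and 243 in shHIF2A. The shJUNs libraries had 189, 203 and 225 and the shYAPTAZ libraries 253, 208 and 260. The 4 lines overlapped. Its change was 0.13 ± 0.15 in shYAPTAZ and -0.09 ± 0.15 in shJUNs, which lay below the chromosome medians (edgeR adjusted p = 9.0e-04 and 0.025 for the departures). The shYAPTAZ departure kept its call with any library left out, while that of shJUNs was lost without Parental replicate 2, shJUNs replicate 1 or shJUNs replicate 2.

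KTN1, a kinesin receptor of the ER, changed by 0.33 ± 0.15 in shYAPTAZ, below the chromosome median (edgeR adjusted p = 0.013), a departure lost without Parental replicate 2 or shYAPTAZ replicate 3. TNFAIP2 split the lines. It had 92.8, 82.4 and 101 CPM in Parental, 172, 165 and 190 in shJUNs and 123, 102 and 101 in shYAPTAZ, and was called above the chromosome median in shJUNs (log2 0.93) and below it in shYAPTAZ (0.23). The departure in shJUNs was lost without Parental replicate 1 or 2 or any shJUNs library, and that in shYAPTAZ kept its call with any library left out. Against shJUNs it was among the 8 members called lower in shYAPTAZ.

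A pair chosen after the values were seen belongs here too. AJUBA, a LIM protein that binds LATS kinases in the Hippo pathway, changed by -0.19 ± 0.14 in shYAPTAZ, which lay below the chromosome median (edgeR adjusted p = 8.05e-06), and fell by 0.95 on the log2 scale in shHIF2A (edgeR adjusted p = 6.11e-05). FRMD6, an upstream Hippo component, changed by -0.41 ± 0.40 and also lay below the median (edgeR adjusted p = 0.032). That departure of FRMD6 was lost without Parental replicate 2 or 3 or shYAPTAZ replicate 1 or 2. AJUBA also lay below the chromosome median in shJUNs (departure -0.62, edgeR adjusted p = 0.00334), where FRMD6 was not called. The departures of AJUBA in both lines kept their call with any library left out. Other Hippo genes among the members were not surveyed.

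PCK2, the mitochondrial phosphoenolpyruvate carboxykinase, had 86.9, 84.1 and 63.6 CPM in Parental and 19.7, 13.7 and 11.9 in shHIF2A. Values in shJUNs were 44.6, 52.9 and 44, and those in shYAPTAZ were 47.2, 45.2 and 52.5. All libraries of the derived lines lay below Parental, those of shHIF2A lowest. It fell 5.13-fold in shHIF2A (log2 -2.36 ± 0.23, edgeR adjusted p = 3.36e-07) and was called below the chromosome median in shJUNs (by 1.13) and shYAPTAZ (by 1.56).

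**Figure D5:**
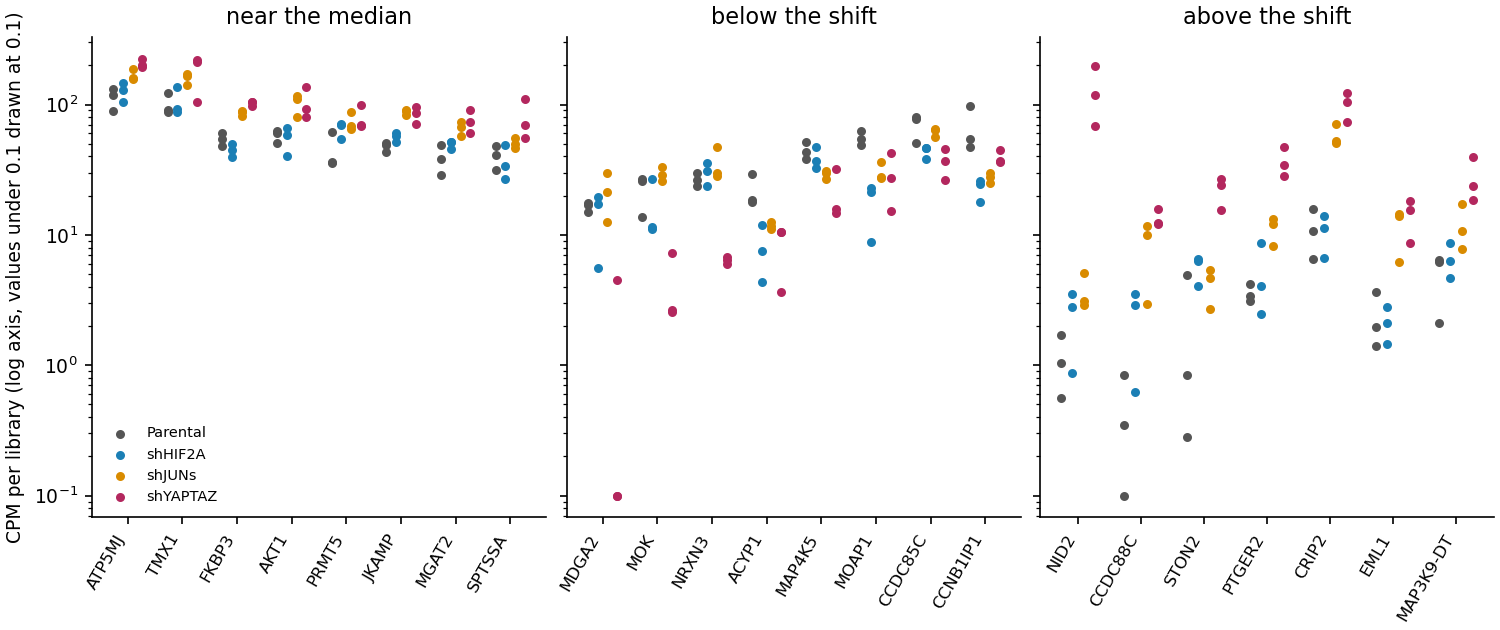
CPM in each of the 12 libraries on a log axis (values under 0.1 drawn at 0.1) for the 8 members closest to the shYAPTAZ median, the 8 farthest below the shift and 7 of the 8 farthest above it, among those called with no overlap of libraries. Members near the median step up from Parental to shYAPTAZ by 1.77-fold to 1.94-fold, while NRXN3 drops to 6.02 to 6.81 CPM and NID2 climbs to 68.7 to 197 CPM in shYAPTAZ.

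Above the shift, NID2, a basement membrane nidogen (chr14:52004809-52069059, minus strand), changed most. It had 1.05, 0.562 and 1.7 CPM in Parental and 0.87, 2.81 and 3.5 in shHIF2A. Its shJUNs libraries held 3.11, 5.07 and 2.91 and its shYAPTAZ libraries 197, 118 and 68.7. The group held 1092 counts in shYAPTAZ against 11 in Parental, and the shYAPTAZ libraries stood far above the other 9. The fit gave log2 6.81 ± 0.49 against Parental and 5.11 ± 0.41 against shJUNs. NID2 reached the level of membership only through shYAPTAZ, since its mean over the other 3 lines was under 5 CPM. The same holds for 13 members, among them CCDC88C, STON2, ANG, GNG2 and TXNDC16 below, and 8 members, among them LINC01303, reached it only through shJUNs. Their rises in those lines were favoured by the choice of members and are descriptions. Without the 20 different members that depended on 1 line in this way, some on either of 2 lines, the medians were 0.86 in shYAPTAZ and 0.39 in shJUNs, with 51.5% and 25.8% called higher. Its exons overlap RTRAF on the opposite strand, whose level was 264 to 397 CPM in shYAPTAZ and 128 to 134 in Parental.

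CRIP2, a LIM-domain protein, had 15.7, 10.7 and 6.5 CPM in Parental and 13.9, 11.2 and 6.66 in shHIF2A. In shJUNs it had 50.4, 70.5 and 52.7 and in shYAPTAZ 123, 105 and 73.3 CPM. Parental and shHIF2A overlapped, and both other lines lay above them and apart from each other. It rose 9.24-fold in shYAPTAZ (log2 3.21 ± 0.31, edgeR adjusted p = 8.79e-08) and 5.32-fold in shJUNs (2.41 ± 0.30, edgeR adjusted p = 6.43e-06), and was not called in shHIF2A (-0.02, edgeR adjusted p = 0.98).

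PTGER2, a prostaglandin E2 receptor, had 4.19, 3.37 and 3.11 CPM in Parental and 8.7, 4.05 and 2.45 in shHIF2A. The shJUNs libraries had 12.2, 8.28 and 13.2 and the shYAPTAZ libraries 47.2, 28.3 and 34.2. The shYAPTAZ libraries were highest. It rose 10.2-fold in shYAPTAZ (log2 3.35 ± 0.43, edgeR adjusted p = 5.87e-06) and 3.16-fold in shJUNs (1.66 ± 0.43, edgeR adjusted p = 0.00939).

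CCDC88C, a regulator of Wnt signalling, had 4 counts over the Parental libraries, 22 in shHIF2A, 109 in shJUNs and 131 in shYAPTAZ. Its CPM was 0.349, 0 and 0.848 in Parental, 11.8, 2.94 and 10.1 in shJUNs and 12.3, 12.1 and 15.9 in shYAPTAZ. It was called higher in both lines, with fitted changes of 4.95 ± 0.82 in shYAPTAZ and 4.25 ± 0.83 in shJUNs that depend on the prior count.

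STON2, an endocytic adaptor, changed by 3.51 in shYAPTAZ, the microtubule protein EML1 by 2.56 and the noncoding MAP3K9-DT by 2.44. All 3 were called above the chromosome median. The departures of EML1 and MAP3K9-DT were lost without Parental replicate 1 or shYAPTAZ replicate 3, and that of EML1 also without Parental replicate 2.

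Changes in the other comparisons were ranked among members called with no overlap of libraries, so larger changes that were not called stand outside these ranks. In shJUNs the largest such rises against Parental were those of CCDC88C, LINC01303 (2.53) and CRIP2, and the largest falls those of ANG (-1.95), CCNB1IP1 (-1.26) and ZFP36L1. ANG, the ribonuclease angiogenin, had 8.03, 6.47 and 4.52 CPM in Parental and 0.29, 2.18 and 2.45 in shHIF2A. Values in shJUNs were 1.55, 2.94 and 0.447, and those in shYAPTAZ were 13.6, 20.1 and 7.95. Parental lay above shHIF2A and shJUNs. Its call in shJUNs (edgeR adjusted p = 0.0496) was lost in 8 of the 15 other settings tried, among them without any of the Parental libraries, and the call of LINC01303 was lost without shJUNs replicate 1. The other members called lower in shJUNs were PCK2, MIDEAS and LYSET.

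In shHIF2A, where the members' median was -0.002, the largest rises among called members were HEATR5A (log2 1.65), the transporter SLC38A6 (1.36) and the ubiquitin ligase AREL1 (1.32). The largest falls were PCK2, LINC02274 (-2.30) and ALDH6A1 (-2.03), a mitochondrial enzyme of valine breakdown. HEATR5A and AREL1 were also called higher in shJUNs (1.55 and 1.28) and shYAPTAZ (2.05 and 1.79). ALDH6A1 had 31.8, 30.4 and 13.6 CPM in Parental and 12.8, 3.12 and 2.1 in shHIF2A, and its call failed when Parental replicate 1 or 2 or shHIF2A replicate 2 or 3 was left out. That of SLC38A6 failed without either Parental replicate 1 or shHIF2A replicate 3.

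Between the derived lines, the largest rises among called members from shJUNs to shYAPTAZ were NID2, ANG (3.07) and GNG2, a G-protein gamma subunit (2.96), and the largest falls MDGA2, MOK and NRXN3. From shHIF2A to shYAPTAZ the largest rises were NID2, TXNDC16 (3.27, from 12 to 113 counts in all) and CRIP2, with the same 3 falls. From shHIF2A to shJUNs they were CRIP2 (2.43), EML1 (2.43) and LINC01303 (2.18), against SEC23A, a COPII coat subunit and the 1 member called lower (-0.61, edgeR adjusted p = 0.0444). That call of LINC01303 was lost without any of the 6 libraries compared. That of SEC23A was lost without any of these except shHIF2A replicate 1, and also without Parental replicate 2 or shYAPTAZ replicate 2.

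Members were also sorted into 7 roles by a list of symbols, and 142 fell in none. The list was not complete. DAD1 and RTRAF, for example, were in no role, so the medians and shares by role describe the listed members only. In shYAPTAZ every role had a median of at least 0.69 on the log2 scale. The 26 members of RNA processing and translation had a median of 1.06, with 17 called higher and 1 lower. The 22 of ubiquitin and protein turnover had 0.98, with 11 higher. The 34 of membrane traffic, ER and cytoskeleton had 0.81 (21 higher), the 24 of transcription and chromatin 0.80 (13 higher), the 23 of signalling and cell survival 0.77 (10 higher, 1 lower), the 21 of DNA repair, replication and cell division 0.74 (10 higher) and the 27 of mitochondria and metabolism 0.69 (11 higher, 2 lower). Over all members the median was 0.87 with 159 of 319 higher (49.8%; 13% of all genes tested). Shares called by role or by level on other chromosomes were not computed. In shJUNs the role medians lay between 0.29 (DNA repair, replication and cell division, 3 of 21 higher) and 0.68 (signalling and cell survival, 4 of 23 higher). In that line 24.8% of all members and 10.3% of all genes tested were called higher.

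Of the most abundant members listed in these roles and not yet described, most rose in shYAPTAZ. PPP2R5C, a regulatory subunit of protein phosphatase 2A, changed by 1.22, and CDKN3, a phosphatase that acts on cyclin-dependent kinases, by 0.64, a call lost without Parental replicate 1 or 2 or shYAPTAZ replicate 2 or 3. PYGL, glycogen phosphorylase of liver type, changed by 1.31, and MTHFD1, an enzyme of folate metabolism, by 1.00. The transcription factor YY1 changed by 0.57, the chromatin remodelling subunit BAZ1A by 1.18 and SUPT16H, a subunit of the FACT histone chaperone, by 1.16. AHSA1, an HSP90 co-chaperone, changed by 1.62. All of these were called higher in shYAPTAZ. PYGL, BAZ1A and AHSA1 were also called higher in shHIF2A, where the chromosome had no shift. CDKN3 was called lower there, a call lost without shHIF2A replicate 1. PPP2R5C, MTHFD1, YY1 and SUPT16H were not called in shHIF2A. Exons of MTHFD1 and BAZ1A overlap genes on the opposite strand. NFKBIA, the inhibitor of NF-kappaB, had 69.1, 126 and 203 CPM in Parental and 84, 136 and 266 in shYAPTAZ. It had 66.7, 89.8 and 126 in shHIF2A and 121, 137 and 141 in shJUNs. Its level rose with replicate number in every line. The spread within Parental and within shYAPTAZ was wider than the shift and followed that number. NFKBIA was not called in the main fit, which left replicate number out (0.29, edgeR adjusted p = 0.682). Each shYAPTAZ library lay above the Parental library of the same number. How far NFKBIA fell short of the shift with replicate number in the fit is not reported here.

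Of the 36 members below the shift in shYAPTAZ (11.3% of the 319), 19 were among the 142 in no role (13.4%). Transcription and chromatin held 5 of 24 (20.8%, beside 11.2% of all genes against their own chromosomes), a difference between roles that was not tested. These 5, named after their values were seen, were JDP2, a repressor of AP-1 (log2 -0.75), the forkhead factor FOXN3 (-0.66), the NuRD subunit MTA1 (-0.36), KHNYN (-0.29) and MIDEAS (0.07). The place of KHNYN in this role is uncertain, and the 20.8% counts it. KHNYN overlaps SDR39U1 on the opposite strand, and its departure was lost without any Parental library or without shYAPTAZ replicate 1 or 3. The departure of MIDEAS was lost without Parental replicate 1 or shYAPTAZ replicate 3. MTA1 and MIDEAS were also called lower than Parental in shHIF2A, and MIDEAS in shJUNs. JDP2, FOXN3 and KHNYN were not called lower in either of those lines. Each of the other roles held 1 to 3. By level, the 85 members at 50 CPM or more had a median of 0.96 with 65 called higher, the 97 at 20 to 50 CPM had 0.78 with 52, and the 137 below 20 CPM had 0.95 with 42. The medians were close while the share called rose with level. The 304 protein-coding members had a median of 0.88 in shYAPTAZ and 0.40 in shJUNs, and the 6 lincRNAs 1.25 and 1.14. The 3 processed pseudogenes had -0.04 and -0.19, and 2 of them were called below the chromosome median in both lines: ENSG00000225200 (-0.35 in shYAPTAZ) and ENSG00000213315 (-0.01). Reads of processed pseudogenes can come from their parent genes elsewhere, so these 2 values are uncertain.

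The 107 members whose exons overlap another tested gene had a median of 0.91 in shYAPTAZ and 0.50 in shJUNs, and the 212 without overlap 0.87 and 0.37. The 152 members on the plus strand had 0.89 and 0.52, and the 167 on the minus strand 0.87 and 0.33. The members just inside the level threshold were PPP1R13B at 5.06 CPM, VCPKMT at 5.15 and TEP1 at 5.26, and those just outside RIN3 at 4.91, PRKCH at 4.89, TOGARAM1 at 4.88 and MIDEAS-AS1 at 4.82. All 319 members passed edgeR's filter on low counts.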

How the data were processed

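RNA of 12 libraries was counted per gene. The deposited values are raw counts. For the authors' steps, the submitters' processing notes name Trim Galore, STAR and hg38. No source used here gives the counting program, its use of strand, the annotation or the handling of molecular identifiers. Of 62705 lines, 3 that broke 1 gene were left out, which gave 62702 genes. Samples were grouped by the genotype label.

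The counts went into edgeR 4.0.16 (R 4.3.3): filterByExpr by group, TMM scaling, a robust quasi-likelihood fit with 1 mean per group over all 12 libraries, and Benjamini-Hochberg adjustment over 12301 genes. The standard error is the log2 change divided by the square root of F. For departures, the median log2 change of each chromosome (genes at 5 CPM or more, at least 20 of them) was added as an offset to the line's libraries. The scripts were tested on simulated data. Log2 CPM used a prior count of 2. Gene types and exon overlaps were taken from GENCODE 29 and the table's exons. Promoter windows were matched by symbol.

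Named members were, in shYAPTAZ against Parental, the 8 most abundant called higher, the 8 farthest on each side of the shift with no overlap of libraries, and the 8 nearest the median at 50 CPM or more. Added were the 3 largest changes each way in every other comparison, among called members with no overlap of libraries. The 3 most abundant members listed in each role were added too. Some of these members are not reported here. The members, lists and tests were chosen with earlier results of these data known. Alternatives were DESeq2 1.42.0 (test and size factors), TMM without chromosomes 13 and 14, no filter, 6 libraries only, a replicate block, other level thresholds and windows, and leaving out each library.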

Additional observations from a re-analysis of the deposited data

How the results depend on the processing

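The median changes of the members kept their direction in shJUNs and shYAPTAZ under every alternative. With each library left out in turn, the median log2 change was -0.013 to 0.068 for shHIF2A vs Parental, 0.40 to 0.46 for shJUNs vs Parental, 0.81 to 0.93 for shYAPTAZ vs Parental, 0.41 to 0.45 for shJUNs vs shHIF2A, 0.78 to 0.87 for shYAPTAZ vs shHIF2A and 0.39 to 0.45 for shYAPTAZ vs shJUNs. The percent of members called higher was 5.33 to 7.21 for shHIF2A vs Parental, 15.7 to 25.1 for shJUNs vs Parental, 40.8 to 50.8 for shYAPTAZ vs Parental, 6.58 to 15.7 for shJUNs vs shHIF2A, 37.9 to 50.8 for shYAPTAZ vs shHIF2A and 9.4 to 21.9 for shYAPTAZ vs shJUNs. The percent called lower was 5.96 to 11.9 for shHIF2A vs Parental, 0.627 to 2.51 for shJUNs vs Parental, 2.19 to 3.45 for shYAPTAZ vs Parental, 0 to 0.313 for shJUNs vs shHIF2A, 0.94 to 1.88 for shYAPTAZ vs shHIF2A and 1.57 to 2.51 for shYAPTAZ vs shJUNs. The percent called above the chromosome median was 5.02 to 7.21 in shHIF2A, 3.45 to 9.09 in shJUNs and 5.33 to 10.3 in shYAPTAZ, and below it 6.27 to 11.9 in shHIF2A, 3.45 to 7.21 in shJUNs and 8.78 to 11.9 in shYAPTAZ. The lowest share called higher in shJUNs against Parental came without shJUNs replicate 3, and the lowest against shHIF2A without shJUNs replicate 1. The lowest share called higher in shYAPTAZ against shJUNs came without shJUNs replicate 3. The lowest share above the chromosome median in shJUNs came without shJUNs replicate 3, and in shYAPTAZ without shYAPTAZ replicate 2.

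The replicate block, with the labels' replicate number as a covariate, gave a median of 0.45 in shJUNs against Parental and 9.72% of members below the chromosome median in shJUNs, and moved no other share of calls by over 1.5 times. Deviations of libraries with the same number correlated from -0.001 to 0.413, above 0.1 in 11 of 18 pairs, and 10 of the 12 libraries correlated best with their own number, a hint from the data and not the design. With members at 20 CPM or more, the median between shJUNs and shHIF2A was 0.37 and 0.549% were called lower. Fitted on only 6 libraries, 2.83% were called lower in shJUNs against Parental. In 5 Mb windows of at least 5 members shJUNs medians ran from 0.15 to 0.72 and shYAPTAZ medians from 0.68 to 1.17. The 3 windows of 2 or 3 members had 0.33 (25 to 30 Mb), -0.001 (40 to 45 Mb) and 0.24 (80 to 85 Mb) in shJUNs, and 1.22, 0.76 and 1.53 in shYAPTAZ. Over 25 members the running median ran from 0.15 to 0.78 and from 0.54 to 1.30. Leaving out members that reached 5 CPM only through 1 line, chosen after seeing the data, moved no median by more than the spread between libraries and no share of calls by over 1.5 times. The causes of these moves were not tested. Of 89 called changes of named members, 71 kept their call in all settings run, 18 lost it in at least 1, and 0 changed sign. At 3 counts per 0.67 to 1.32 CPM, changes of members near 5 CPM were estimated least precisely.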
